A study of Mus musculus with 6 samples.

Results

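The genes described here encode the machinery that makes, destroys, senses and localises cyclic AMP. They were chosen by symbol: adenylyl cyclases (Adcy), phosphodiesterases (Pde), the catalytic and regulatory subunits of protein kinase A (Prkac and Prkar), A-kinase anchoring proteins (Akap), and the transcription factors and coactivators Creb, Crem and Crtc. All probe sets annotated to exactly 1 such symbol were taken, which gave 51 genes on 90 probe sets, of 12393 genes with a single symbol and 22690 probe sets on the array. Of these, 35 genes on 52 probe sets lay above the filter on low signal (the lowest 35% of probe sets by mean log2 signal over all arrays were left out) and were tested, while 16 genes were measured only by probe sets below it.

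Epididymal white adipose tissue (WAT) of young adult male wild-type C57BL/6 mice was hybridised to 1 array per sample, 3 arrays from undisturbed control mice and 3 from mice under timed sleep restriction (TSR). TSR mice were kept awake by gentle handling for 6 h per day, at the start of the light phase, on 5 days in a row. Both groups were killed at Zeitgeber time (ZT) 18, in the middle of the dark, active phase. Neither the labels nor the methods state whether each array held RNA of 1 animal, so p-values measure the spread between these samples, which may be technical. The comparison asks which transcripts of the cyclic AMP system differed in WAT after TSR.

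In adipocytes, hormone receptors coupled to the stimulatory G protein switch on adenylyl cyclases, and receptors coupled to the inhibitory G protein restrain them. Cyclic AMP releases the catalytic subunits of protein kinase A (PKA) from their regulatory subunits, and PKA drives lipolysis by phosphorylating perilipin and hormone-sensitive lipase. Phosphodiesterases end the signal, anchoring proteins hold PKA at particular membranes and organelles, and CREB with its CRTC coactivators carries the signal to genes.

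Arrays of a group correlated at r = 0.967 to 0.971 over log2 signals and arrays of different groups at r = 0.953 to 0.957, descriptively and over probe sets, which are not independent. All 6 measured adipocyte markers were among the genes called, 3 higher and 3 lower, or 3 higher and 0 lower with quantile normalization. Hepatocyte markers (14 measured) were all above the control range in each TSR array, and their signals summed to 402 to 508 in control and to 12489 to 12935 in TSR. All 8 macrophage markers were lower in every TSR array (7 of them called), with sums of 20006 to 20755 against 13777 to 13938. The 5 measured T lymphocyte markers, all below the filter, summed to 182 to 190.03 against 86.3 to 108.3. Only 2 of the 5 were apart between groups, both lower. The summed signal of the 3 measured B lymphocyte markers went the other way, at 96.8 to 108.2 against 125.6 to 133.5. RNA controls differed too, since the 5′ minus 3′ log2 signal of beta-actin was -1.23 to -1.20 in control and -0.668 to -0.666 in TSR. That of Gapdh was -0.599 to -0.476 in control and 0.073 to 0.173 in TSR. The part of these differences in the results below was not tested except where a value is given.

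Each gene was represented by the tested probe set whose log2 signal, averaged over the 6 arrays, was highest, and was called when the adjusted p of limma was under 0.05. Of the 35 tested cyclic AMP genes, 8 were higher in TSR, 4 were lower and 23 were not called. Over all 8619 genes tested, 24.0% were called higher and 23.0% lower, 47.0% in all, against 34.3% of the cyclic AMP genes. Signals of the groups did not overlap for 16 of the 35 genes, and for 56.8% of all genes. No cyclic AMP gene was called with a change of at least 2-fold, a class that held 3.09% of all genes. The median log2 fold change was 0.08, with a range from -0.59 to 0.90, beside 0.01 over all genes, and the median size regardless of sign was 0.18 beside 0.21. The replicates were as tight for these genes as for the rest, with a median SD within groups of 0.0933 log2 units against 0.0948. Both the share called and the typical size of change were thus below those of genes at large, as a description with no test.

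**Figure D1:**
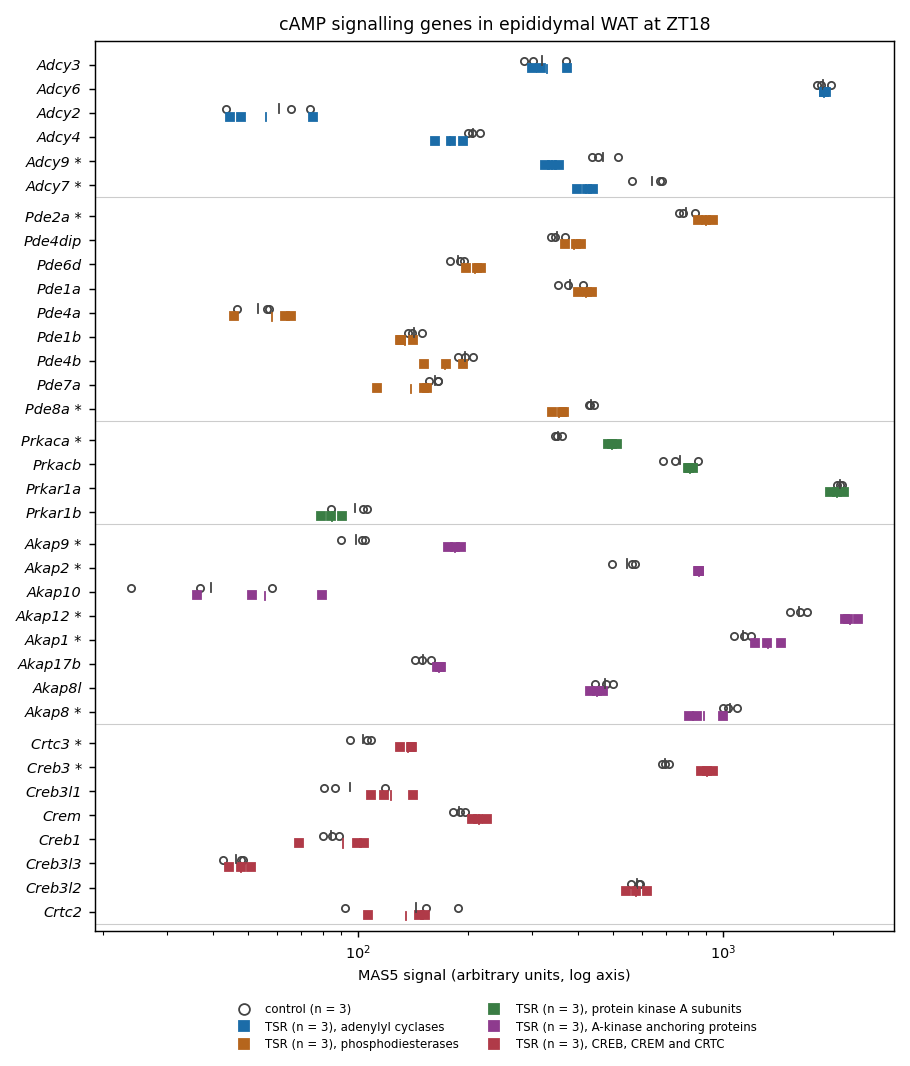
MAS5 signal (horizontal log axis, arbitrary units) of the 35 tested cyclic AMP genes in each of 3 control arrays (open circles) and 3 TSR arrays (squares, coloured by family), with group means as short vertical lines and an asterisk at the 12 called genes. The 3 TSR arrays of Akap2 lie between 857 and 860.3, above its control arrays at 497 to 575, while those of Adcy7 lie at 399 to 440.5, below its control arrays at 562 to 679.

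Among the adenylyl cyclases, 2 of 6 tested genes fell, none rose, and the family median log2 fold change was -0.17. Of all genes tested, 23.0% were called lower and 24.0% higher. Adcy7, a cyclase that responds to G protein beta-gamma subunits and is prominent in immune cells, gave signals of 672, 562 and 679 in control and of 425, 399 and 440.5 in TSR on probe set 1456307_s_at. Every TSR array was below every control array. The log2 fold change was -0.59 (SE 0.083, adjusted p = 0.00051, n = 3 per group). A further probe set of Adcy7, 1450065_at, fell by 0.55 on the log2 scale (adjusted p = 0.00065), from 293, 263 and 291 to 190.04, 194 and 193. The dimmest set, 1420970_at, gave 0.23 and was not called (adjusted p = 0.37). It went the opposite way, with every TSR array (50.6 to 53.8) above every control array (35.3 to 49.6). The drop in Adcy7 stood beside the lower macrophage markers given above, and in bulk tissue fewer cells of a type and less RNA per cell cannot be told apart.

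Adcy9, a widely expressed cyclase that is largely insensitive to forskolin, gave 515, 439 and 454 in control and 356, 339.7 and 326 in TSR on 1418586_at. The groups were apart, and the log2 fold change was -0.46 (SE 0.078, adjusted p = 0.0014). Its other tested probe sets showed no such difference, at -0.08 (adjusted p = 0.51) and 0.01 (adjusted p = 0.91), so the call rests on 1 of 3 probe sets, and their mean was not called (-0.17, adjusted p = 0.073).

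Adcy6, a cyclase inhibited by calcium, was the most tightly measured gene without a call. Its signals were 1808, 1977 and 1859.6 in control and 1888, 1911 and 1888 in TSR, with a log2 fold change of 0.01 and a 95% interval from -0.09 to 0.12. Adcy3, the cyclase whose loss causes obesity in mice, overlapped between groups on both of its tested probe sets, at 0.05 (95% interval -0.22 to 0.32) and 0.25 (-0.45 to 0.95), while 1 of its sets below the filter, 1421959_s_at, was at 8.36 to 9.55 in control and 11.9 to 41.1 in TSR. Adcy4 was lower in every TSR array, at 163, 194 and 179.7 against 201, 205 and 216, but its change of -0.21 was not called (adjusted p = 0.098). Adcy2 gave 43.4 to 73.8 in control and 44.8 to 75.3 in TSR. Adcy8, a calcium-stimulated cyclase known mainly from brain, was below the filter.

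The phosphodiesterase symbols covered 19 genes, of which 9 were tested, 1 rose and 1 fell, beside 24.0% and 23.0% of all genes. Pde8a, which hydrolyses cyclic AMP with high affinity, had signals of 442, 433 and 429 in control and of 339.9, 367 and 362 in TSR. The groups were well apart, and Pde8a fell by 0.29 on the log2 scale (SE 0.062, adjusted p = 0.0049). Pde2a, which is stimulated by cyclic GMP and hydrolyses both nucleotides, gave 760.2, 841 and 779 in control and 852, 939 and 899 in TSR. Its rise of 0.18 (SE 0.059, adjusted p = 0.036) was a small one, and it was lost under both other scalings between arrays, at 0.13 with quantile normalization (adjusted p = 0.11) and 0.07 with median centring (adjusted p = 0.45). The call also went when control replicate 1 (adjusted p = 0.12), control replicate 3 (0.089), TSR replicate 2 (0.12) or TSR replicate 3 (0.077) was left out.

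The remaining tested phosphodiesterases were not called and spanned log2 fold changes from -0.23 to 0.15. They held Pde4b, a cyclic AMP-specific enzyme known for its role in inflammatory cells, at -0.19 (adjusted p = 0.19) on 1 probe set and -0.18 (adjusted p = 0.24) on the other. Pde4a stood at 0.11, the calmodulin-regulated Pde1a and Pde1b at 0.15 and -0.09, and Pde7a, a further cyclic AMP-specific enzyme, at -0.23 on the set that represents it and at -0.01 and 0.10 on its other tested sets. A Pde7a set below the filter, 1451839_a_at, went the opposite way to the one that represents the gene, with 25.8 to 43.8 in control and 47.3 to 52.6 in TSR. The rule also took up Pde4dip (0.15, adjusted p = 0.1), which encodes myomegalin, a scaffold protein, and Pde6d (0.15, adjusted p = 0.2), a carrier of prenylated proteins. The photoreceptor enzymes Pde6a, Pde6b, Pde6c, Pde6g and Pde6h were below the filter, as were Pde1c, Pde3a, Pde7b, Pde9a and Pde10a. Pde3b, the insulin-regulated phosphodiesterase of adipocytes, was not analysed here, nor was Pde4d.

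Among the PKA subunits, 1 of 4 tested genes rose and none fell by the probe set that represents it. Among all genes 24.0% were called higher and 23.0% lower. Prkaca, the main catalytic subunit in most tissues, gave 363, 351 and 347 in control and 497, 512 and 485 in TSR. No TSR array was within 100 units of a control array, and the log2 fold change was 0.49 (SE 0.059, adjusted p = 0.0002). The sister catalytic gene Prkacb overlapped between groups, with 739, 857 and 686 against 826, 801 and 808 (log2 fold change 0.10, 95% interval -0.08 to 0.28).

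Prkar1a, the regulatory subunit that restrains PKA in the cytoplasm, had signals of 2099, 2123 and 2049.7 in control and of 2143, 1962 and 2057 in TSR on 1452032_at. They overlapped, at a log2 fold change of -0.03 (95% interval -0.13 to 0.08). On 1425550_a_at, Prkar1a was slightly lower in every TSR array, at -0.15 (adjusted p = 0.025), from 1256 to 1311 in control to 1122 to 1194 in TSR. Prkar1b, known mainly from neurons, was not called on either tested probe set (-0.20 and 0.28). Prkar2a was below the filter, and Prkar2b, the regulatory subunit most tied to adipose tissue, was not analysed here.

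The anchoring proteins held the widest changes, with 5 of 8 tested genes called, 4 of them higher, and a family median of 0.34. Over all genes, 47.0% were called and 24.0% were higher. Without the intensity trend or without the filter, 3 of the 8 were called. The calls of Akap1, Akap8 and Akap9 depended on the processing, as given below. Akap2, an anchoring protein associated with actin, gave 564, 575 and 497 in control and 860.3, 857 and 858 in TSR. The TSR arrays agreed to within 4 units, far above the control arrays, and the log2 fold change was 0.66 (SE 0.064, adjusted p = 6.5e-05). Akap12, or gravin, a scaffold that binds beta-adrenergic receptors together with PKA and protein kinase C, rose from 1523, 1705 and 1628 to 2199, 2346 and 2157. Its groups did not overlap either, at 0.47 (SE 0.055, adjusted p = 0.0002).

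Akap9, a large scaffold of the centrosome and Golgi, showed the highest fold change, 0.90 (SE 0.11, adjusted p = 0.00023), on 1437082_at. Signals there were 104.6, 90.0 and 102.6 in control and 192, 177 and 184 in TSR, well apart. The other probe set of Akap9, 1455151_at, gave 119.8, 99.9 and 126 in control and 119, 86.9 and 128 in TSR and did not differ beyond its spread (-0.06, adjusted p = 0.79). It was the brighter set when control arrays alone were used to choose, so the call of Akap9 rests on which set stands for the gene.

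Akap1, which ties PKA to the outer mitochondrial membrane, was the single member with several tested probe sets that were all called in 1 direction. On 1449019_at its signals were 1072, 1197 and 1145 in control and 1319, 1441 and 1222 in TSR (0.22, adjusted p = 0.027), and on 1418279_a_at they were 138.7, 109 and 100.2 against 171, 189 and 201 (0.70, adjusted p = 0.0034). TSR was higher in every array on both sets, but the call on the first was lost with quantile normalization (adjusted p = 0.052) and median centring (adjusted p = 0.29), and when control replicate 1 (0.097), control replicate 3 (0.056), TSR replicate 1 (0.068) or TSR replicate 2 (0.087) was left out.

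Akap8, a nuclear anchoring protein of chromatin, had opposite calls. On 1433669_at it gave 1096, 1035 and 998 in control and 809, 849.9 and 999.7 in TSR, an overlapping pair of groups called lower at -0.24 (adjusted p = 0.035), a call lost without control replicate 1 (adjusted p = 0.11), control replicate 2 (0.062), TSR replicate 1 (0.12) or TSR replicate 2 (0.1). On 1450983_at it gave 541, 522 and 654 against 665, 748 and 709, which were apart and called higher at 0.31 (adjusted p = 0.019). No single direction can therefore be given for Akap8.

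Among the other anchoring proteins, Akap17b was slightly higher in each TSR array (0.15, adjusted p = 0.21), and the related nuclear protein Akap8l overlapped between groups (-0.07, adjusted p = 0.38). Akap10, which can bind both types of regulatory subunit, had the widest 95% interval of the members without a call, from -0.34 to 1.36. Akap3 and Akap4, structural proteins of the sperm tail, were below the filter, and the 6 testis and sperm markers summed to 29.7 to 74.7 in control and 22.2 to 62.9 in TSR. Akap7 was below the filter as well.

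**Figure D2:**
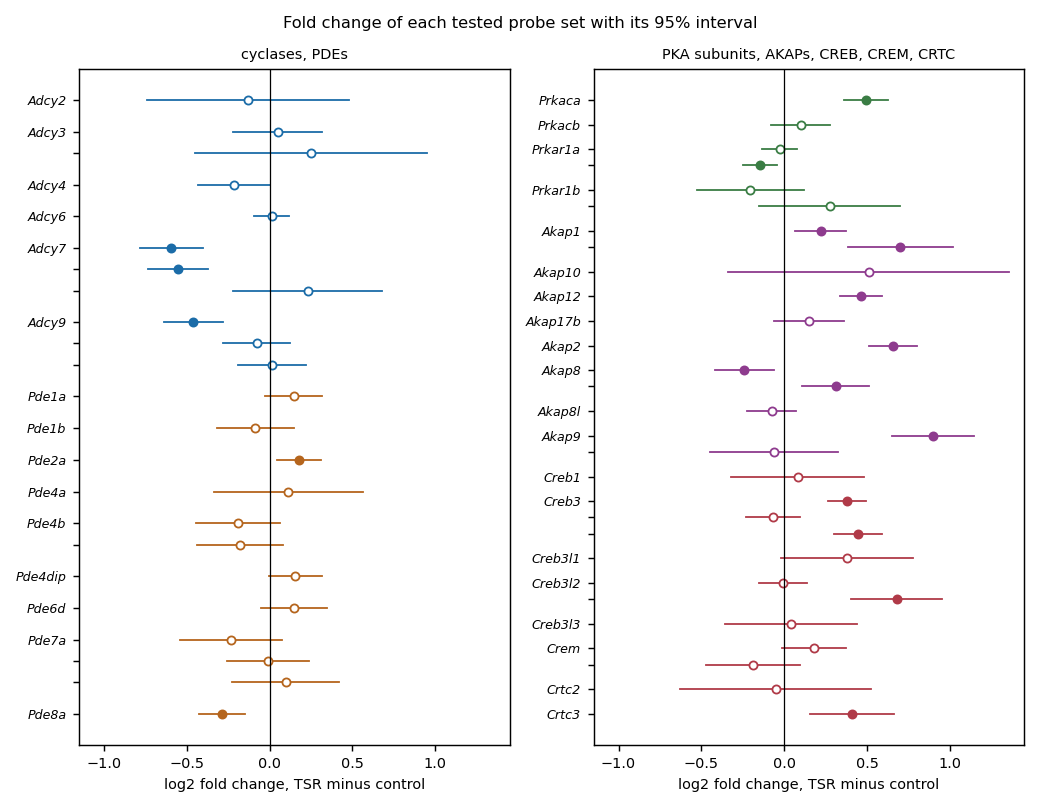
Log2 fold change (horizontal axis, TSR minus control) of all 52 tested probe sets of the cyclic AMP genes with 95% intervals of limma as lines, filled where called, with the set that represents the gene at the label and its other sets below. Akap8 has filled points on both sides of 0, at -0.24 and 0.31, and Adcy7 has 2 filled points at -0.59 and -0.55 and an open one at 0.23.

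Of the transcription factors and coactivators, 2 of 8 tested genes rose, none fell, and the family median was 0.13. The shares over all genes were 24.0% higher and 23.0% lower. Crtc3, a CREB coactivator that PKA signalling allows into the nucleus, had signals of 109, 95.3 and 105.7 in control and of 130.2, 140.4 and 140.1 in TSR. The groups were apart at 0.41 (SE 0.11, adjusted p = 0.016), a call lost with median centring (adjusted p = 0.055) and without TSR replicate 2 (adjusted p = 0.052). Crtc2 varied widely within both groups, from 92.0 to 188 in control and 106 to 153 in TSR, and had a 95% interval from -0.63 to 0.52. Creb1, the founding PKA target of the family, overlapped between groups (0.08, 95% interval -0.32 to 0.48). Crem, whose gene also encodes repressors of CREB-driven transcription, had opposite signs on its tested probe sets, at 0.18 (adjusted p = 0.12) and -0.19 (adjusted p = 0.25), and neither was called.

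The Creb3 genes encode relatives of CREB that are held in the endoplasmic reticulum and released by proteolysis, not by PKA. Creb3 gave 692, 709.7 and 681 in control and 869, 906 and 938 in TSR on 1424741_s_at, all TSR arrays being above the control arrays, at 0.38 (SE 0.05, adjusted p = 0.00037). It was also called higher on 1424740_at (0.45, adjusted p = 0.00054), but not on 1419979_s_at (-0.07, adjusted p = 0.46). The last was the brightest Creb3 set on the control arrays, so this call too depends on which set stands for the gene. Creb3l2 showed no difference on the set that represents it (-0.01, 95% interval -0.15 to 0.14), whereas 1437396_at rose from 134, 122 and 112 to 206, 172 and 211 (0.68, adjusted p = 0.0019). Creb3l1 was at 0.38 with overlapping groups (adjusted p = 0.11). Creb3l3, a factor known chiefly from liver, stayed between 42.7 and 51.1 in all 6 arrays (0.04, adjusted p = 0.86), beside the raised hepatocyte markers of the TSR arrays. Its signals were close to the filter on low signal. Creb3l4 was below the filter.

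Counted over probe sets, 12 of the 52 tested sets of these genes were higher, 6 were lower and 34 were not called, beside 46.6% of all 14707 tested probe sets called in either direction. Of 13 genes with several tested sets, 5 had none called, 6 had some called in 1 direction with the rest uncalled, Akap1 had all called alike, and Akap8 had opposite calls. Positions of the probes along the transcripts were not analysed here, so whether sets that differ measure different isoforms was not tested. The part of the 5′ minus 3′ difference between groups in such sets was not tested either. Among the 23 uncalled genes, 16 had a 95% interval within -0.5 to 0.5 on the log2 scale, and 5 had groups that did not overlap. Several called changes were smaller than 0.5, such as that of Pde8a at -0.29, so this bound does not exclude changes of that size. Signals of the 38 probe sets below the filter did not pass 86.1 on any array.

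The balance of higher and lower calls depended on how arrays were scaled to each other. Median centring moved the median log2 fold change of all tested probe sets by -0.11, and quantile normalization by -0.05. With median centring 5 cyclic AMP genes were higher and 6 lower, and with quantile normalization 6 and 6, in place of 8 and 4. Akap1 and Pde2a were no longer called under either, Crtc3 was no longer called with median centring, and Adcy4 and Pde4b were called lower under both. Relative to that shift, the calls of Adcy7, Adcy9, Pde8a, Prkaca, Akap2, Akap9, Akap12, Akap8 and Creb3 kept their direction under both scalings. Adcy7, Pde8a, Prkaca, Akap2 and Akap12 were the 5 members whose call was the same under every alternative run, including each array left out in turn. Of these, all but Adcy7 had a single tested probe set. Alternatives that averaged a gene's sets or chose another set could therefore not put their calls to the test.

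**Figure D3:**
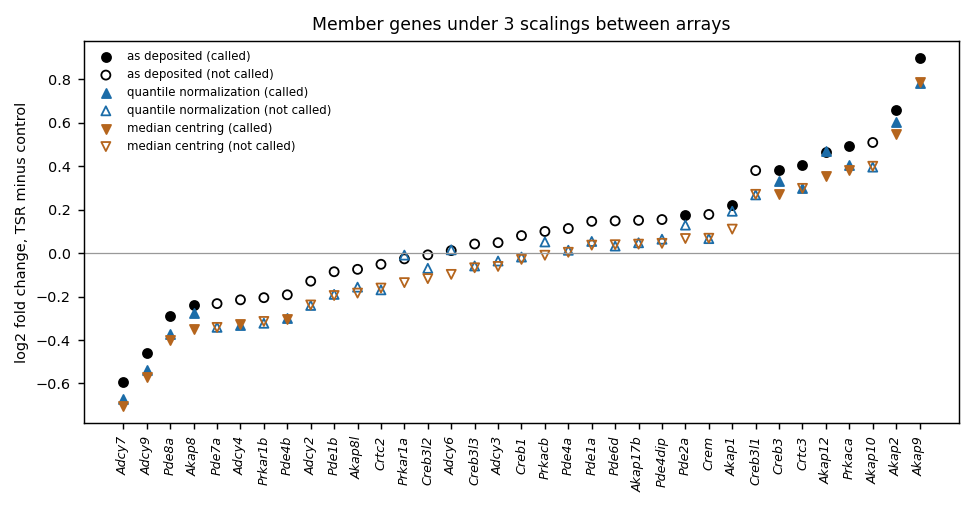
Log2 fold change (vertical axis, TSR minus control) of the 35 tested cyclic AMP genes on signals as deposited (circles), after quantile normalization (upward triangles) and after median centring (downward triangles), filled where called. Most triangles lie below the circles, and the higher and lower calls go from 8 and 4 to 6 and 6 and to 5 and 6.

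Other genes of the pathway were taken from lists by role, and their counts stand beside 24.0% of all genes called higher and 23.0% lower. Among receptors that raise cyclic AMP, 4 of 7 tested genes rose and 2 fell (median 0.30), with the same counts under both other scalings. The list held 22 genes, of which 14 were analysed here, so the counts do not cover all such receptors. Ptger2, a prostaglandin E2 receptor, dropped from 317, 313 and 309.9 to 104, 91.9 and 90.6 (-1.71, adjusted p = 2.8e-06), and its relative Ptger4 from 662, 685 and 651 to 282, 326 and 297 (-1.14, adjusted p = 4.1e-06). In both, every TSR array was below every control array. These drops stood beside the lower macrophage markers given above, and which cell types they came from was not tested. Adcyap1r1, the PACAP receptor, rose from 82.5, 65.0 and 58.1 to 126, 152 and 159 (1.10, adjusted p = 0.00079). Mc2r, the corticotropin receptor through which mouse adipocytes respond to that hormone, rose from 551, 525 and 540.3 to 664, 658 and 667 (0.30, adjusted p = 0.0014).

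Among receptors that lower cyclic AMP, 2 of 6 tested genes rose and 2 fell (median -0.30). Of 16 genes on this list, 10 were analysed here, so it too is incomplete. Hcar2, the antilipolytic receptor for niacin and beta-hydroxybutyrate, was at 386, 402 and 387 in control and 184, 204 and 192 in TSR (-1.02, adjusted p = 1.2e-05). The lower Hcar2 signal stood beside the lower macrophage markers too, and whether it came from adipocytes was not tested. Lpar1, a lysophosphatidic acid receptor, was lower at -0.69 (adjusted p = 0.0006), and Ptger3, the prostaglandin E2 receptor that opposes lipolysis, was higher at 0.33 (adjusted p = 0.00091). Sucnr1, the succinate receptor, rose by little, at 0.17 (adjusted p = 0.012), and was not called with median centring, under which 1 receptor of the list rose. Of the 4 prostaglandin receptors named on both lists and tested, Ptgir alone was not called (-0.26, adjusted p = 0.22).

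G protein subunits and their regulators changed little as a list, with 4 of 25 tested genes higher and 5 lower (median -0.06). Gnas, the stimulatory alpha subunit, was at -0.07 (adjusted p = 0.24). Gnai1, an inhibitory alpha subunit, was at -0.03 (adjusted p = 0.65) on deposited signals but at 0.20 and called higher with quantile normalization, so no direction can be given for it. Rgs10 (-0.70, adjusted p = 7.5e-05) and Rgs4 (-0.62, adjusted p = 0.00081), which shorten G protein signals, and Gng2 (-0.63, adjusted p = 0.016), a gamma subunit, fell, the last not being called without control replicate 3 (-0.55, adjusted p = 0.059). With median centring the list had 2 higher and 9 lower. Which cell types the falls of Rgs10, Rgs4 and Gng2 came from was not tested.

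Among other effectors and inhibitors of cyclic AMP signalling, 2 of 12 tested genes rose and 3 fell (median -0.07), and with median centring 2 rose and 6 fell. Popdc2, a membrane protein that binds cyclic AMP, rose from 45.4, 38.4 and 51.9 to 148, 134 and 123 (1.59, adjusted p = 8.5e-05). Popdc2 is best known from heart and skeletal muscle, and the summed skeletal muscle markers were 471 to 512 in control and 1933 to 1989.98 in TSR. That sum was mostly Acta1, since Ckm, Myh4, Tnnt3 and Mylpf did not pass 49.0 on any array. Ckm, Myh4 and Tnnt3 overlapped between groups, and Mylpf was lower in every TSR array (30.7 to 34.2 against 40.9 to 49.0). Hdac5, a histone deacetylase that PKA and salt-inducible kinases control, rose at 0.55 (adjusted p = 0.0002), whereas the salt-inducible kinase gene Sik1, itself a CREB target, fell at -0.53 (adjusted p = 0.028). The Sik1 call was lost without the filter (adjusted p = 0.06), with the methods' t-test (0.1), and without control replicate 2 (0.071), control replicate 3 (0.097), TSR replicate 1 (0.076), TSR replicate 2 (0.064) or TSR replicate 3 (0.054). Rap1b, a small GTPase downstream of the cyclic AMP sensor Epac, fell at -0.29 (adjusted p = 0.0012), while Rapgef3, which encodes that sensor, was at -0.15 (adjusted p = 0.2). The PKA inhibitors Pkia and Pkig were at 0.04 and -0.13 and not called.

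Of 8 tested lipolysis proteins that act downstream of PKA, 2 rose and 2 fell (median 0.02). Lipe, hormone-sensitive lipase, rose from 2363, 2657 and 2463 to 3843, 4013 and 3600.4 (0.61, adjusted p = 5.8e-05), and G0s2, the inhibitor of adipose triglyceride lipase, rose from 6046, 6582 and 7328 to 9298, 9807 and 8876 (0.49, adjusted p = 0.00071). Both were apart in every array. Fabp4, the fatty acid carrier, was at -0.43 (adjusted p = 0.0029), but at -0.08 and not called with quantile normalization (adjusted p = 0.16). Pnpla2, which encodes adipose triglyceride lipase itself, was not called at 0.15 (adjusted p = 0.091). With quantile normalization 3 of these genes rose and none fell, and with median centring 2 rose and 4 fell.

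Genes that CREB induces in many tissues were called most often of the lists, 13 of 15 tested, with 3 higher and 10 lower and a median of -0.59, against 24.0% and 23.0% of all genes called in each direction. Their signals did not overlap between groups in 14 of 15, beside 56.8% of all genes, and with either other scaling 3 were higher and 11 lower. Fos, an immediate early gene, fell from 364, 386 and 375 to 139, 137 and 131 (-1.46, adjusted p = 2.2e-06). Pck1, which encodes the cytosolic phosphoenolpyruvate carboxykinase of adipocyte glyceroneogenesis, fell from 4088, 3886 and 4474 to 2130.1, 1776 and 2019.6 (-1.07, adjusted p = 1e-05). The others called lower were Egr1, Irs2, Nr4a1, Icam1, Btg2, Per1, Atf3 and Dusp1, between -1.24 and -0.30. The 3 that rose were Dio2, the thyroid hormone-activating deiodinase, from 29.7, 25.4 and 26.5 to 159, 128 and 139 (2.38, adjusted p = 8.5e-06), the clock-linked repressor Nfil3, from 281, 274 and 276 to 879, 929 and 784 (1.64, adjusted p = 7.6e-07), and the coactivator Ppargc1a, from 153, 178 and 172 to 350.1, 338 and 344 (1.04, adjusted p = 2.4e-05). Other pathways induce most of these genes as well, and the lists were drawn up with results of these data known, so the counts describe the lists only.

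**Figure D4:**
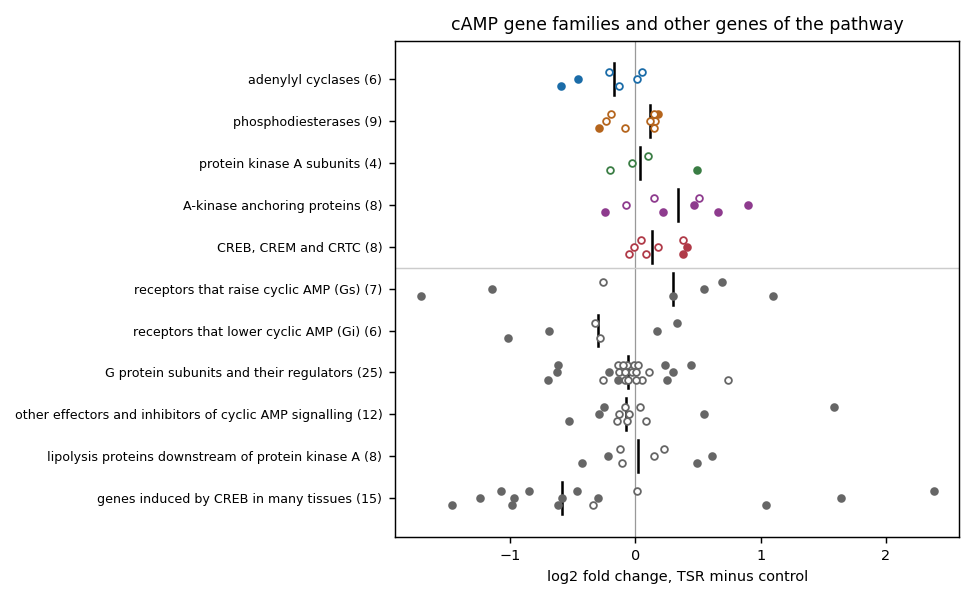
Log2 fold change (horizontal axis, TSR minus control) of each tested gene in the 5 cyclic AMP gene families (coloured) and in 6 lists of other pathway genes (grey), filled where called, with black bars at medians and numbers of genes in brackets. The family medians lie between -0.17 and 0.34, and the genes induced by CREB have a median of -0.59 with 3 genes above 1.

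CREB binds the cyclic AMP response element, whose full palindrome is TGACGTCA. Its half-site is TGACG, which reads as CGTCA on the opposite strand and is contained in the palindrome. Both strands of RefSeq promoter windows (GRCm38.p6, 250 bases before to 50 bases after each start site) were searched, and 38 of the 51 genes matched a window, with 78 windows in all. The full element was present in 1.79% of all 32851 windows and in 2 of the 78 windows of cyclic AMP genes (2.56%), both of Prkar1a. These are overlapping windows that hold the same element at 1 position. The half-site was present in 20.8% of all windows and in 20 of 78 here (25.6%), and the E-box CACGTG, which CLOCK and BMAL1 bind, in 7.15% and in 5 of 78 (6.41%). Counted per gene, the half-site was in a window of 17 of 38 cyclic AMP genes (44.7%) and of 23.0% of all genes, but the former had 2.05 windows per gene and the latter 1.22. It was found for 3 of the 4 genes called lower, and for 2 of the 6 genes called higher that had a window, Prkaca and Pde2a. These matches are letters in a window and not binding sites.

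The stretches around the elements are shown for the called cyclase, phosphodiesterase and PKA genes that hold one before a start site (that of Pde2a lies after it and is not shown), and for the full element of Prkar1a, 5′ to 3′ on the strand of the gene with the element in capitals. Adcy7 lies on chr8:88282951-88282980 (plus strand), Adcy9 on chr16:4420506-4420535 (minus strand), Pde8a on chr7:81213168-81213197 (plus strand), Prkaca on chr8:83972845-83972874 (plus strand) and Prkar1a on chr11:109650889-109650918 (plus strand).
Adcy7 half-site: gtgatcatagagcCGTCAggggggtggggc
Adcy9 half-site: ccggacccggcggTGACGtgcgcgggccgc
Pde8a half-site: agctgctttgcatTGACGccagcagccgct
Prkaca half-site: agtctgcaactcgCGTCActcatccaggag
Prkar1a full element: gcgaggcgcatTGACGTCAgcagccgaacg
The half-sites begin 28 bases before the most upstream of 3 start sites in Adcy7, 24 before the start site in Adcy9, 84 in Pde8a, and 120 before the more upstream of 2 start sites in Prkaca, which has a further half-site 6 bases before it, and the full element of Prkar1a begins 49 bases before 1 of its start sites. The whole upstream windows of Adcy9 (chr16:4420499-4420748, minus strand) and Pde8a (chr7:81213015-81213264, plus strand), which each have 1 start site, are given for context.
Adcy9 upstream: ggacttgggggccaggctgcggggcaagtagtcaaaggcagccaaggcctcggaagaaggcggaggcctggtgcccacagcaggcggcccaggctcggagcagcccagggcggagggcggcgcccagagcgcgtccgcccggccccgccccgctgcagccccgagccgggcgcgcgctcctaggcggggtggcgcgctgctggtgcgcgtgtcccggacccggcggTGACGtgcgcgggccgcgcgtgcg
Pde8a upstream: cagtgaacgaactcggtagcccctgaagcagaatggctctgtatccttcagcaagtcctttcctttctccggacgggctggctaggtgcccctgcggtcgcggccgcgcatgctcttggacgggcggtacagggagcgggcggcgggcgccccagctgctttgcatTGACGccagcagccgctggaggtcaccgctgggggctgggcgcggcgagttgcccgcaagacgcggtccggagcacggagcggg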

How the data were processed

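RNA of epididymal WAT was hybridised to Affymetrix GeneChip mouse arrays, and the authors computed linear intensity values (signals) with MAS5 and deposited them without detection calls. Trimmed mean signals were near 500 on each array and medians 127 to 141. Log2 signals, with no pseudocount, were compared with limma 3.58.1 in R 4.3.3 (two-sided, intensity trend, Benjamini-Hochberg over 14707 probe sets), without the 64 control probe sets and the lowest 35% by mean log2 signal (under 5.45). The number of arrays limits the precision. In simulated data with known changes, limma recovered 84 of 100 probe sets changed by 1 log2 unit. That rate does not carry over to the tested cyclic AMP genes, whose changes ran from -0.59 to 0.90. The simulation also changed far fewer probe sets than were called in the data. Of 22690 probe sets, 20393 had 1 gene symbol, 691 several and 1606 none.

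Of a gene's tested probe sets, the one of highest mean log2 signal stood for the gene. The genes described, the pathway lists and the marker lists were chosen with earlier results of these data known. Values in every array were given for called genes (up to 4 per direction and family), the gene with the highest signal per family, genes with opposite calls and, of each pathway list, the gene with the highest signal and up to 3 called genes of largest change. Other pathway genes were named by role after their values were seen. Other scalings, tests, filters, probe set choices and each array left out were run as alternatives. Replicate numbers were not taken as pairs, and whether they pair the arrays was not settled. The sources disagree on whether tissue was frozen or kept in a preservative before extraction.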

Additional observations from a re-analysis of the deposited data

How the results depend on the processing

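Of the 12 called members, 5 kept their call under every alternative, but all of these except Adcy7 had a single tested probe set. Against 8 higher, 4 lower and a median log2 fold change of 0.08, quantile normalization gave a median of 0.013, and median centring gave 5 higher, a median of -0.029 and 1 called gene among CREB, CREM and CRTC. Without the intensity trend, without the filter and with the methods' t-test on linear or on log2 signals, 1 phosphodiesterase and 3 anchoring proteins were called, and the median without the filter was 0.042. The methods' t-test called 6 members higher and 3 lower after Benjamini-Hochberg adjustment, and 0 with the methods' 2-fold rule added (256 of all genes). With the lowest 50% left out, 1 gene among CREB, CREM and CRTC was called and the median was 0.049. With all probe sets of a gene averaged, 2 members were lower, 1 cyclase was called, and Akap8 was at 0.035 (adjusted p = 0.67). With the probe set brightest on the control arrays, an alternative chosen after seeing the data, Akap9 was at -0.063 and Creb3 at -0.068, 1 gene among CREB, CREM and CRTC was called and the median was 0.042. Gnai1 was at 0.20 with quantile normalization and at 0.23 with its probe sets averaged, from -0.03. The cause of these differences was not tested.

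Leaving out 1 array at a time gave 5 to 10 members higher, 5 without TSR replicate 2 and 10 without control replicate 2, and a median from 0.047 to 0.11. The counts of called genes ranged from 1 to 2 among phosphodiesterases (1 without control replicate 1, control replicate 3, TSR replicate 2 or TSR replicate 3), from 1 to 2 among PKA subunits (2 without control replicate 2), from 3 to 5 among anchoring proteins (3 without control replicate 1, TSR replicate 1 or TSR replicate 2) and from 1 to 3 among CREB, CREM and CRTC (1 without TSR replicate 2). Deviations from the group means correlated at 0.02, 0.19 and 0.17 between control and TSR arrays of the same number. Between arrays of different numbers they correlated at -0.22 to 0.06. The values 0.19 and 0.17 were the highest of all, so a pairing by number was neither shown nor excluded. The numbers were not taken as pairs in the main comparison. With the replicate block, 8 members were higher and 4 lower, and 4043 and 3391 probe sets in place of 3768 and 3082.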
